A study of Mus musculus with 4 samples.

Results

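The replication-dependent histone genes supply the core histones H2A, H2B, H3 and H4 and the linker histone H1 that package newly replicated DNA. They were taken as every row of the gene tables whose symbol starts with Hist1h, Hist2h, Hist3h or Hist4h, which gave 69 of 24453 rows: 6 genes of H1, 19 of H2A, 19 of H2B, 12 of H3 and 13 of H4. Hist1h2al (H2A) and Hist3h2bb-ps (H2B) are annotated as processed pseudogenes and are counted among these genes throughout. On GRCm38 with the GENCODE M21 annotation, the Hist1 cluster held 55 of the 69 on chromosome 13 and the Hist2 cluster 10 on chromosome 3. The Hist3 cluster held 3 on chromosome 11 and Hist4 held 1 on chromosome 6. Their transcripts were measured by RNA-seq in back-skin epidermis of newborn mice (postnatal day 0), in cells sorted for EpCAM, Sca1 and high α6-integrin, a gate that enriches interfollicular epidermal progenitors. The 2 mutant libraries, called I53A here, came from mice with the genotype Ring1a-/- Ring1b-/I53A, which carry no functional copy of Ring1a and 1 Ring1b copy with the I53A substitution beside a null copy. The 2 comparison libraries are labelled Control, with no alleles given. The labels name no Cre driver or promoter, do not say whether animals were pooled, and do not say that replicates came from separate animals or litters, so the p-values measure only the spread between these libraries, which may be technical.

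RING1A and RING1B are the alternative E3 ubiquitin ligases of Polycomb repressive complex 1 (PRC1), and their substrate is a histone of this family: they attach ubiquitin to the C-terminal tail of H2A. The I53A substitution lies in the RING domain of RING1B and impairs its ligase activity. Replication-dependent histone genes sit in clusters of many near-identical copies without introns and are transcribed mainly in S phase. Their mRNAs usually end in a short conserved stem-loop in place of a poly(A) tail, and the stem-loop binding protein SLBP, which recognises it, takes part in their processing, translation and decay.

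The stem-loop is the sequence that sets these mRNAs apart, so it is shown for at least 1 gene of each form found. The motif searched has 16 bases, in order GG, 3 of any base, TTT, 2 of any base, A, 3 of any base and CC, with 6-base arms able to pair (G-T pairs allowed) around a 4-base loop. It was searched on the sense strand in up to 100 annotated bases after the stop codon. It was present in 44 of the 67 histone genes with an annotated coding sequence. Among the 30 with all 100 bases annotated it was present in 25 (83.3%), against 4 of 19894 other protein-coding genes (0.0201%). It began 21 to 58 bases after the stop codon (median 31). In the lines that follow, DNA letters read 5′ to 3′ from the GENCODE transcripts, capitals mark the stem-loop and lower case the 5 bases on either side.
Hist1h1e: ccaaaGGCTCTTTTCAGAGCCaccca
Hist1h2bm: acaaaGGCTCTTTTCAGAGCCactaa
Hist2h2ac: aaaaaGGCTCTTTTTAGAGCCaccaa
Hist1h3e: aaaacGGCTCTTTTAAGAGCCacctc
Hist1h4d: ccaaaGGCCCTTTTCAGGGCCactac
Hist2h4: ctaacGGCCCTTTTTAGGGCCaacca
Hist1h4j: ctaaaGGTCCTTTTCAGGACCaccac
The 6 forms differed by type. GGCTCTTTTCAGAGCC, shown for Hist1h1e and Hist1h2bm, was shared by 26 genes of H1, H2A, H2B and H3, and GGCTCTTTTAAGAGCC, shown for Hist1h3e, by 6 genes of H1, H2B and H3. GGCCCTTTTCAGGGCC, shown for Hist1h4d, occurred in 7 genes, all H4. The forms shown for Hist2h4 and Hist1h4j occurred in 2 H4 genes each, and the form shown for Hist2h2ac in that gene only.

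The data show lower summed histone transcript levels in I53A for all 5 types, with 1 gene, the linker histone Hist1h1e, passing the test. Levels are CPM, read counts relative to the library total, scaled for library composition (TMM). Over all 69 genes the summed level was 463.1 CPM in the first control and 561.9 CPM in the second, against 372.2 and 326.4 CPM in the I53A libraries, and values are given in that order throughout. The means were 512.5 ± 69.89 and 349.3 ± 32.4 CPM (SD, n = 2), so the I53A mean was 68.2% of control, a log2 ratio of -0.55. The linker histones were summed at 209.3 and 250.0 CPM in control and 156.1 and 142.4 CPM in I53A, which is 65.0% of control. H2A genes summed to 37.65 and 48.2 CPM against 26.51 and 29.46 CPM (65.2%). In every one of these sums both I53A libraries lay under both controls.

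H2B genes summed to 145.8 and 178.9 CPM in control and 127.8 and 103.6 CPM in I53A (71.2%). The H4 sums were 57.63 and 70.12 CPM against 51.17 and 39.41 CPM (70.9%). H3, the type with the lowest counted total, had the smallest difference, with 12.67 and 14.7 CPM against 10.62 and 11.54 CPM (80.9%). These sums did not overlap between the groups either, but with 2 libraries against 2 an exact permutation test cannot give a two-sided p below 0.333, and the sums carry no test. A few genes made up most of each sum: Hist1h1e gave 62.9% of the control H1 level, Hist1h4d 81.4% of H4, Hist1h2ak 57.1% of H2A and Hist1h3e 44.7% of H3. Without Hist1h1e the I53A mean was 72.3% of control over the other 68 genes and 77.6% over the other 5 H1 genes. In bulk RNA, fewer cells making histone mRNA and less of it per cell cannot be told apart. How far the libraries captured histone mRNA without a poly(A) tail was not tested, so the levels are those of the captured mRNA. Of the 44 genes with a stem-loop, 25 had 50 or more annotated bases past it.

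**Figure D1:**
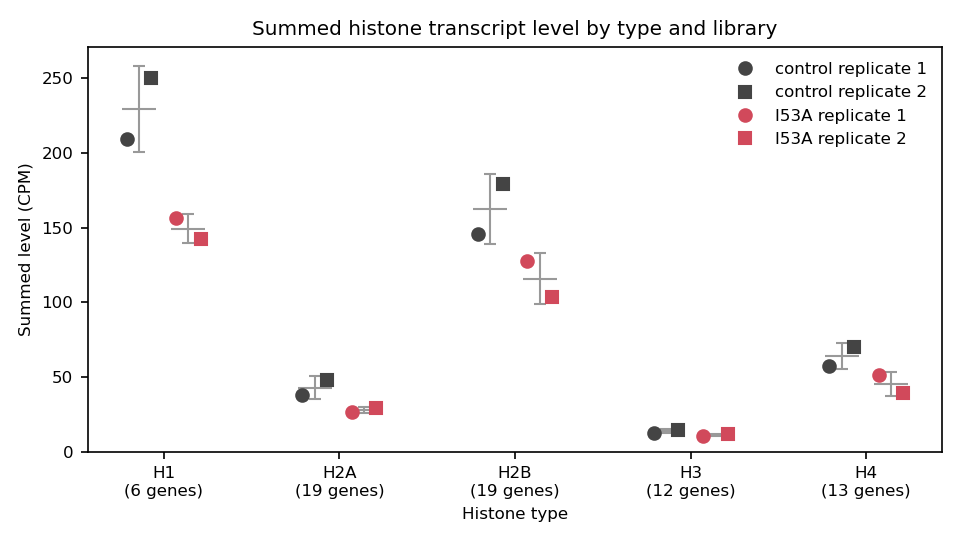
Summed level in CPM (y axis, linear, from 0) of the genes of each histone type (x axis) in the 4 libraries; circles are replicate 1 and squares replicate 2 of control (dark) and I53A (red), and grey bars are the mean ± SD of each group (n = 2). Both I53A libraries lie below both controls in each type, from 80.9% of the control mean for H3 to 65.0% for H1.

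Gene by gene, 37 of the 69 had enough reads for the test (edgeR's quasi-likelihood test with Benjamini-Hochberg adjustment over 14550 genes, adjusted p under 0.05). One was lower in I53A and 0 were higher, against a background of 1.04% of all tested genes called lower and 5.68% called higher. At an unadjusted p under 0.05, 8 histone genes were lower and 0 higher, where 5.69% of all tested genes were lower and 13% higher. DESeq2 also called 0 histone genes higher. Both I53A libraries lay below both controls for 18 of the 37 (48.6%), where 23.5% of all tested genes did, and above both controls for 2, where 24.4% did. The log2 fold change was below 0 for 28 of the 37 (75.7%, against 51.6% of all tested genes), and the median was -0.39 (all tested genes -0.01). Members of the family have near-identical sequences and lie close together, so these counts are not of independent genes.

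The genes were also described by abundance. Of the tested histone genes, 15 had a mean of 5 CPM or more over the 4 libraries, and all 15 had a log2 fold change below 0, against 5909 of 10756 genes at that level (54.9%). Both I53A libraries lay under both controls for 8 of those 15 (53.3%), and for 25.7% of all genes at that level. Of the 22 under 5 CPM, 13 were below 0 (59.1%, against 42.0% of all 3794 genes at that level) and 9 above. Of those 9, 4 did not reach 10 counts in both controls. Among all tested histone genes, 33 had 10 counts or more in both controls, and 28 of them were below 0 (84.8%). With 10 counts or more in both I53A libraries it was 23 of 29 (79.3%). Among those 29, both I53A libraries lay below both controls for 14 (48.3%). Whether the 2 abundance classes differ was not tested. The test filter keeps a gene that is high in either group, and among the 59 histone genes with any reads 43 had a lower mean and 16 a higher mean in I53A, while all 19695 rows with reads split into 9656 lower and 10039 higher.

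**Figure D2:**
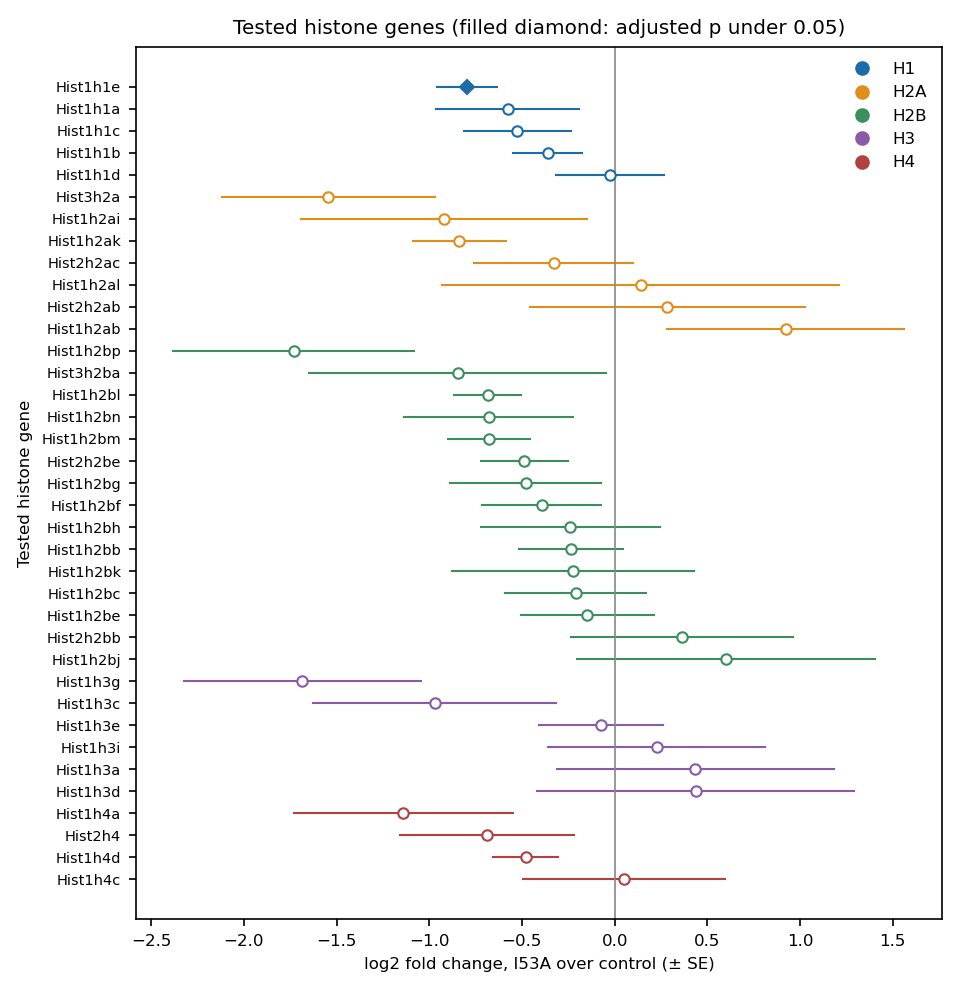
Log2 fold change of I53A over control (x axis, error bars ± SE from edgeR, 2 libraries a group) for the 37 tested histone genes (y axis), coloured by type and ordered within it. The filled diamond is Hist1h1e, the gene with an adjusted p under 0.05; 28 of the 37 lie left of 0.

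Linker histones bind the DNA entering and leaving the nucleosome and promote compaction. Hist1h1e (ENSMUSG00000051627, chr13:23620629-23622558, minus strand, 1 exon, protein-coding) was the most abundant gene of the family, also per length of coding sequence (219 CPM per kb in control). Its coding sequence is 660 of 1930 annotated bases, against 381 of 381 for Hist1h2bl, so this rank may differ per annotated length. Hist1h1e was at 131 and 158 CPM in control and 92.2 and 74.3 CPM in I53A. Both I53A libraries lay well under both controls, at 57.5% of control (log2 fold change -0.80 ± 0.17, SE from edgeR, adjusted p 0.0167, n = 2 a group). The adjusted p was 0.0990 without control replicate 1 and 0.175 without control replicate 2.

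The other abundant H1 genes had smaller differences that did not pass the test. Hist1h1b was at 47.5 and 59.9 CPM in control and 37.0 and 46.2 CPM in I53A, so the groups came close without overlapping (-0.36 ± 0.19, adjusted p 0.367). Hist1h1c was at 16.5 and 18.8 CPM against 15.8 and 9.16 CPM (-0.52 ± 0.29, adjusted p 0.399). There only I53A replicate 2 was well below the controls, and the adjusted p was 0.0487 when I53A replicate 1 was left out. Hist1h1d, at 9.69 and 8.08 CPM against 7.76 and 9.60 CPM, overlapped between the groups (-0.02 ± 0.30). The testis linker histone Hist1h1t had 1 and 5 counts in control and 2 and 0 in I53A.

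H2A carries the lysine that PRC1 ubiquitinates. Hist1h2ak (chr13:21753435-21753827, minus strand) was its most abundant gene, at 22.9 and 26.1 CPM in control and 10.6 and 16.4 CPM in I53A. Both I53A libraries were below both controls, with a log2 fold change of -0.84 ± 0.26 and an adjusted p of 0.0892. It passed the test in 4 alternative fits: without I53A replicate 2 (0.00778), with GC content and length offsets (0.0418), with the replicate number as a block (0.0347) and with both block and offsets (0.00326). Hist2h2ac had 6.36 and 14.7 CPM in control and 11.2 and 5.90 CPM in I53A (-0.33 ± 0.43, adjusted p 0.777). The spread within each group was wider than the difference between the group means.

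The less abundant H2A genes differed in both directions. Hist3h2a, the H2A gene of the chromosome 11 cluster, was at 2.68 and 2.78 CPM in control and 0.509 and 1.23 CPM in I53A (-1.54 ± 0.58, adjusted p 0.172), from 45, 42, 8 and 28 counts. Its log2 fold change was -2.41 without I53A replicate 2 and -1.14 without I53A replicate 1. Hist1h2ab had the largest positive log2 fold change of the tested histone genes, 0.92 ± 0.64 (adjusted p 0.526), with 0.714 and 0.927 CPM against 1.21 and 1.81 CPM. It was 1 of the 2 genes with both I53A libraries above both controls, although at 12 to 41 counts a library.

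H2B pairs with H2A in the nucleosome, and its genes were the most evenly expressed of the 5 types, the most abundant giving 22.6% of the control sum. That gene, Hist1h2bl (chr13:21715763-21716143, minus strand), gave 36.7 and 36.5 CPM in control and 23.9 and 21.8 CPM in I53A. The replicates were close in both groups and the groups well apart, yet the gene missed the threshold (-0.69 ± 0.19, adjusted p 0.0581). The adjusted p was 0.0296 without I53A replicate 1, 0.0470 with the replicate block, 0.0466 with block and offsets, and 0.0402 by DESeq2. Hist1h2bm was at 27.0 and 39.5 CPM against 20.98 and 20.56 CPM (-0.68 ± 0.23, adjusted p 0.121). Hist2h2be, the H2B variant known from olfactory neurons, was at 23.3 and 32.5 CPM against 22.6 and 17.4 CPM (-0.49 ± 0.24, adjusted p 0.321). For both, all I53A values were under all control values, for Hist2h2be by a narrow margin.

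The fourth H2B gene by level, Hist1h2bf, overlapped between the groups, with 11.5 and 20.0 CPM in control and 14.5 and 9.69 CPM in I53A (-0.39 ± 0.33, adjusted p 0.611). Hist1h2bp had the largest negative log2 fold change of the tested histone genes, -1.73 ± 0.65 (adjusted p 0.175). Its control values were 1.90 and 6.09 CPM and its I53A values 1.40 and 1.01 CPM, and the log2 fold change was -0.69 without control replicate 2.

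Counted levels of H3 genes were low. The highest, Hist1h3e, was at 5.47 and 6.75 CPM in control and 6.04 and 5.59 CPM in I53A, with overlapping groups (-0.07 ± 0.34, adjusted p 0.948). Hist1h3g had 2.02 and 2.52 CPM in control and 0.318 and 0.969 CPM in I53A (-1.68 ± 0.65, adjusted p 0.183), from 34, 38, 5 and 22 counts, and its log2 fold change was -2.80 without I53A replicate 2 and -1.21 without I53A replicate 1. Hist1h3c was at 1.43 and 1.32 CPM against 0.509 and 0.837 CPM (-0.97 ± 0.66, adjusted p 0.513). Both lay lower in each I53A library, whereas Hist1h3i had 1.19 and 1.66 CPM against 2.16 and 1.28 CPM (0.23 ± 0.59, adjusted p 0.903) and overlapped.

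Counted H4 reads came mostly from 1 gene. Hist1h4d was at 48.3 and 55.7 CPM in control and 41.0 and 33.8 CPM in I53A (-0.48 ± 0.18, adjusted p 0.173), with no overlap. Per kb of coding sequence it stood at 167 CPM in control and 120 CPM in I53A, second to Hist1h1e in the controls. Its coding sequence is 312 of 1138 annotated bases, so this rank too may differ per annotated length. Without I53A replicate 1 its adjusted p was 0.0484. Hist2h4 (3.57 and 7.02 CPM against 4.32 and 2.42 CPM, -0.69 ± 0.47) overlapped, as did Hist1h4c (2.201 and 1.523 CPM against 2.543 and 1.497 CPM, 0.05 ± 0.55). Hist1h4a was at 1.78 and 3.38 CPM in control and 1.53 and 0.881 CPM in I53A (-1.14 ± 0.59, adjusted p 0.359).

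**Figure D3:**
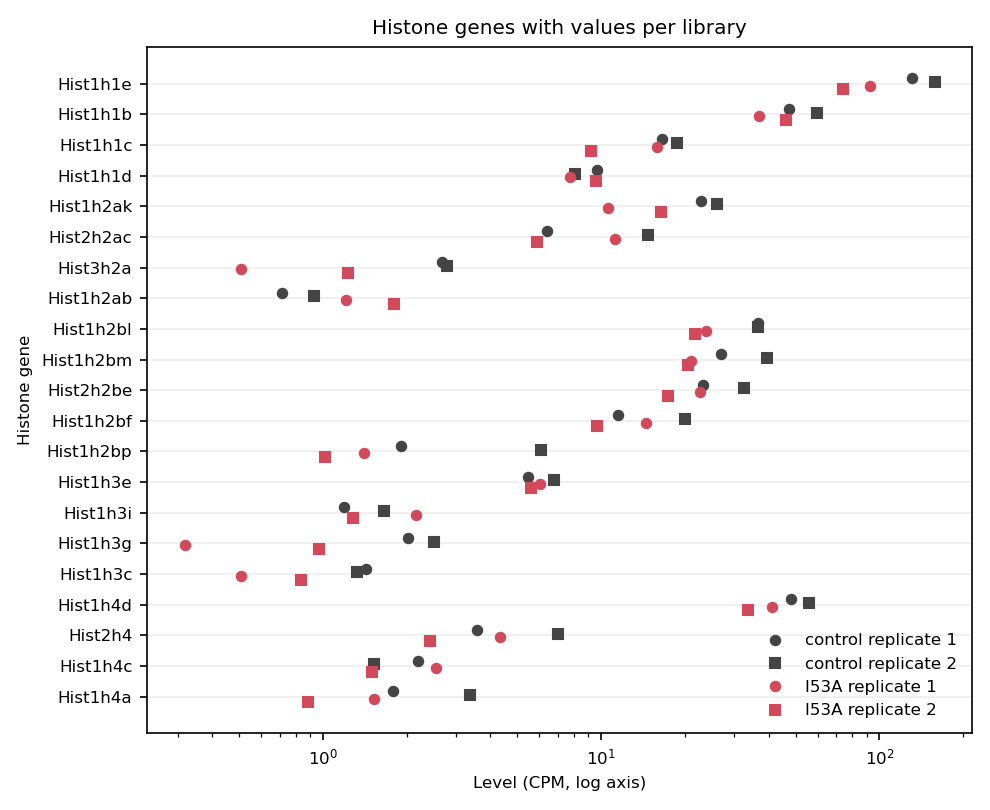
Level in CPM (x axis, log scale) in each library for the 21 histone genes chosen by the naming rule (y axis, ordered by type and level); circles are replicate 1 and squares replicate 2 of control (dark) and I53A (red). Red and dark points separate for Hist1h1e, Hist1h2ak, Hist1h2bl and Hist1h4d and mix for Hist1h1d, Hist2h2ac, Hist1h3e and Hist1h4c.

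On chromosome 13 the tested genes, apart from the distant pseudogene Hist1h2al, lay in 3 stretches. In chr13:21715763-21837530, which holds 18 histone genes including Hist1h2ak and Hist1h2bl, 8 were tested, and both I53A libraries lay below both controls for 7 (87.5%, beside 48.6% of the tested family and 23.5% of all tested genes), with a median log2 fold change of -0.68. In chr13:23531050-23934851, which holds 31 genes including Hist1h1e and Hist1h4d, 19 were tested. Of these, 15 were below 0 (78.9%, beside 75.7% of the tested family and 51.6% of all tested genes). There both I53A libraries lay below both controls for 8 of the 19 (42.1%) and above both for 2. The stretch between them, chr13:22035164-22043676, had 2 tested genes. The stretches were drawn after the positions and values were seen, and the difference between them was not tested.

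H2A and H2B genes often stand head to head and share the DNA between their starts. There were 13 such pairs with RefSeq starts within 500 bases, among them Hist3h2a with the pseudogene Hist3h2bb-ps, and 3 had both genes tested. RefSeq starts can differ from the GENCODE positions given above. In each of the 3 both log2 fold changes were negative. They were -0.84 for Hist1h2ak and -0.68 ± 0.46 (SE) for Hist1h2bn (163 bases apart). For Hist1h2bl and Hist1h2ai (228 bases) they were -0.69 and -0.92 ± 0.78, the last from 11, 19, 8 and 11 counts. For Hist2h2ac and Hist2h2be (191 bases) they were -0.33 and -0.49. Neither Hist1h2bn nor Hist1h2ai passed the test (edgeR, adjusted p 0.509 and 0.621). Of all tested histone genes 75.7% were below 0, and whether pairs differ from that was not tested. The partners Hist1h2bn and Hist1h2ai, like Hist1h1t and Hist1h2al, fall outside the naming rule and were chosen after their values were seen. The promoters of Hist1h1e, the gene that passed the test, and of Hist1h2ak, which faces Hist1h2bn, show the elements of such genes. Each is 250 bases before to 50 bases after the RefSeq start on GRCm38.p6, read 5′ to 3′ on the gene's strand, with capitals for CCAAT or TATAAA on either strand.
Hist1h1e, chr13:23622509-23622808, minus strand: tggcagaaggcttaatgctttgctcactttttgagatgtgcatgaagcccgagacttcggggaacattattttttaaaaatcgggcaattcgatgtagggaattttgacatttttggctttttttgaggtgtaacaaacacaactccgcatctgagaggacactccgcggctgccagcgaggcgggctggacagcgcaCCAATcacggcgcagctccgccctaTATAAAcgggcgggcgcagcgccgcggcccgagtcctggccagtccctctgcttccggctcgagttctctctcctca
Hist1h2ak, chr13:21753863-21754162, minus strand: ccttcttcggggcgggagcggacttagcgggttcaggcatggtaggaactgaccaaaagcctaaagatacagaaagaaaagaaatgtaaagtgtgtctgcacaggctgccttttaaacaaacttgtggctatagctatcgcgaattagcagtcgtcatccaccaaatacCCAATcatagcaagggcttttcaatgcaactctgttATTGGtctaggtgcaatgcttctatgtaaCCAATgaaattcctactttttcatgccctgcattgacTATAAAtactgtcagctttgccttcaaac
The Hist1h1e window has 1 CCAAT and 1 TATAAA on the gene's strand, and the Hist1h2ak window has CCAAT on both strands upstream of a TATAAA. RefSeq held such a window for 62 of the 69 genes, all 69 having matched by an older symbol. CCAAT was present in 53 of the 62 (85.5%), in every H1, H2A, H2B and H3 window but in 3 of 12 for H4 (25%), against 37.9% of 27025 RefSeq windows of that length. TATAAA was present in 35 (56.5%, against 14.2%). The octamer ATTTGCAT was present in 7 of 18 H2A and 6 of 16 H2B windows and in 0 of the H1, H3 and H4 windows (1.75% of all windows). All motifs were searched on both strands, none of the 3 contains another, and a match is a description of the letters. Windows of head-to-head H2A and H2B genes can overlap, so 1 site can be counted for both genes of a pair.

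How much of each gene can be told from its relatives differs by type and bears on every value given here. Libraries were read as single 100-base reads, so uniqueness was taken as the share of 100-base windows of the coding sequence found in no transcript of a gene elsewhere. The median was 95.1% for H1, 48.2% for H2B, 39.9% for H4, 33.3% for H2A and 28.4% for H3. Hist1h1e was at 90.2%, Hist1h2ak at 89.5% and Hist1h4d at 100%, but Hist1h2bl at 37.9%, so its reads could also have come from other H2B genes. How reads that fit several copies were counted is not given in the sources used here.

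No read was counted for 10 genes, which had 0 counts in all 4 libraries: Hist1h2ao, Hist1h2ap, Hist1h2ba, Hist1h2bq, Hist1h2br, Hist1h4m, Hist2h2aa1, Hist2h2aa2, Hist2h3c1 and Hist2h3c2. Of these, 9 had no unique window in the coding sequence, against a median of 48.7% over the 59 genes with reads. For these 9 a 0 cannot be read as absence of expression from the coding sequence. Their annotated bases outside it were not searched for unique windows. Low uniqueness did not always go with 0 counts: 9 of the 59 genes with reads had under 10% unique windows. Among them Hist1h2ag, with none, had 3 and 2 counts in control and 3 and 11 in I53A; it was named after its values were seen. The exception was Hist1h2ba, the testis H2B, at 72.6% unique windows; a count of 0 allows up to 3 counts, which is 0.132 to 0.199 CPM here, for counting error only. The 22 genes with reads that were not tested had at most 16 counts in any library. Among tested genes, 18 of the 23 with at least 50% unique windows had a log2 fold change below 0 (78.3%), as did 10 of the 14 under 50% (71.4%).

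**Figure D4:**
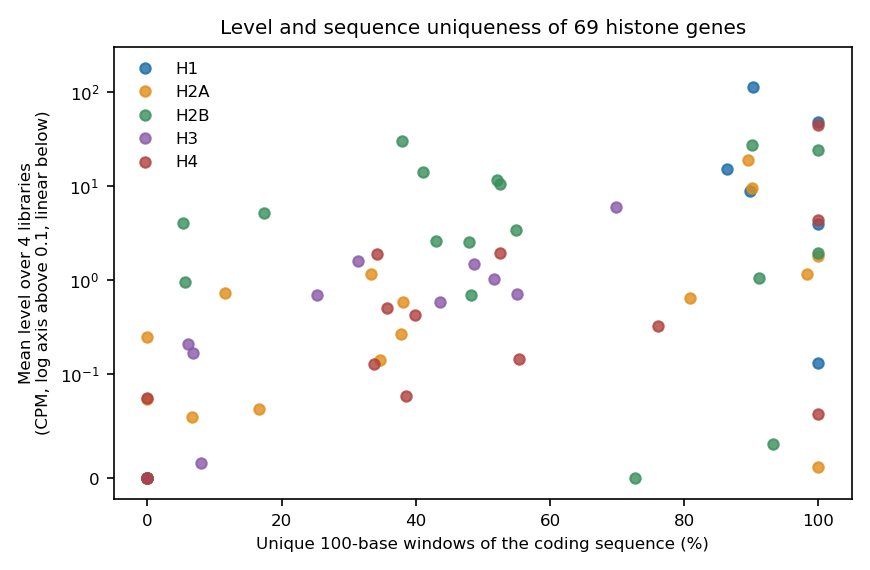
Mean level over the 4 libraries (y axis, CPM, log scale above 0.1 and linear below) against the share of unique 100-base windows of the coding sequence (x axis, %) for the 69 histone genes, coloured by type. The 9 genes with no unique window and no reads overlie one another at 0% and 0 CPM, and the 10 most abundant genes lie between 37.9% and 100%.

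Other histone genes, called replication-independent here, were followed as a list of 12, of which 11 were tested. Most, but not all, are expressed outside S phase and give mainly polyadenylated mRNA. One was called lower, the linker histone H1f0, which accumulates in differentiating and quiescent cells. Of all tested genes 1.04% were called lower. H1f0 fell from 482 and 489 CPM in control to 224 and 274 CPM in I53A, or -0.96 ± 0.15 on the log2 scale (edgeR, adjusted p 0.00304, n = 2 a group). It was the clearest linker histone difference, with both I53A libraries near 50% of control, but its adjusted p was 0.0675 without control replicate 1. Of the 11, 8 had a log2 fold change below 0 (72.7%, against 51.6% of all tested genes). For 5 of the 11 (45.5%, against 23.5% of all tested genes) both I53A libraries lay below both controls, and for 2 above both.

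Genes that transcribe and process histone mRNA did not pass the test: 0 of 33 were called by edgeR, 0 had an unadjusted p under 0.05, and DESeq2 called 0. Of these 33, 25 were below 0 (75.8%, against 51.6% of all tested genes), with a median log2 fold change of -0.12. For 9 of the 33 (27.3%, against 23.5% of all tested genes) both I53A libraries lay below both controls, and for 1 above both. The most abundant, the terminal uridylyltransferase gene Zcchc6 and the 3′-end cleavage factor gene Pcf11, differed by -0.02 ± 0.13 and -0.06 ± 0.14. Slbp, which was named after its value was seen, was at 39.7 and 34.9 CPM in control and 31.5 and 35.3 CPM in I53A (-0.16 ± 0.18, adjusted p 0.733). Its groups overlapped.

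Histone chaperones, which escort histones to and from DNA, gave 0 calls among 21 tested genes by edgeR and by DESeq2. By edgeR, 2 had an unadjusted p under 0.05, both lower (background 5.69%). Of the 21, 16 were below 0 (76.2%, against 51.6% of all tested genes), and their median was -0.19. For 10 of the 21 chaperone genes (47.6%, against 23.5% of all tested genes) both I53A libraries lay below both controls. The most abundant were Atrx, a remodeller that works with the chaperone DAXX (-0.21 ± 0.14, adjusted p 0.493), and Anp32e, a chaperone of H2A.Z (-0.26 ± 0.14, adjusted p 0.369).

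Because histone mRNA follows S phase, 38 genes of DNA replication and the cell cycle, called S phase genes here, were set beside it. The list also holds Mki67, Top2a, Cdk1 and Ccnb1, which are not limited to S phase. Slbp is in this list and in that of histone mRNA processing. By edgeR 0 of the 38 were called, with 3 at an unadjusted p under 0.05, all lower (background 5.69%). DESeq2 called 1 of the 38. Of the 38, 30 were below 0 (78.9%, against 51.6% of all tested genes), and the median log2 fold change of the 38 was -0.22. Both I53A libraries lay below both controls for 20 of the 38 (52.6%, against the 23.5% background). Their summed level was 4771 and 4630 CPM in control and 4288 and 4543 CPM in I53A, 93.9% of control. The most abundant, the proliferation marker Mki67 and the topoisomerase gene Top2a, both differed by 0.03 (adjusted p 0.953 and 0.944). Per 100 CPM of these genes the histone sum was 9.707 and 12.14 CPM in control and 8.681 and 7.185 CPM in I53A, which do not overlap. Those 2 genes make up most of the summed S phase level, and without them the other 36 genes summed to 2137 and 2192 CPM in control and 1666 and 1991 CPM in I53A (84.5%). Per 100 CPM of these 36 the histone sum was 21.67 and 25.63 CPM in control and 22.34 and 16.39 CPM in I53A, and the groups overlapped. The groups were thus separate on this scale with Mki67 and Top2a in the sum and not without them. The part of the S phase genes' difference in the histone difference was not tested.

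The libraries held 15505018 to 21543385 counts in genes. Ring1, the gene of RING1A, was at 24.1 and 33.2 CPM in control and 2.54 and 2.91 CPM in I53A (-3.38 ± 0.31, adjusted p 0.000172). Rnf2, the gene of RING1B, was at 58.5 and 45.8 CPM against 58.8 and 59.0 CPM (0.18, adjusted p 0.681), and gene counts do not show the I53A substitution. The 9 markers of the sorted progenitors summed to 30380 and 33930 CPM in control and 23840 and 21080 CPM in I53A, with 1 of 9 called lower. Marker sums of other cells differed as well: the 8 fibroblast markers summed to 1490 and 1555 CPM against 2232 and 2018 CPM (2 called higher), the 8 hair follicle markers to 485 and 483 CPM against 698 and 738 CPM (1 higher, 2 lower) and the 5 Merkel cell markers to 8.74 and 6.95 CPM against 26.1 and 19.7 CPM (1 higher). The 6 muscle markers summed to 7.02 and 4.44 CPM against 0.954 and 2.60 CPM (1 lower). For comparison, 1.04% of all tested genes were called lower and 5.68% higher. The 4 erythroid markers summed to 12.1 and 12.0 CPM against 10.5 and 7.35 CPM, with Hba-a2 at 0. Sums of differentiated epidermis (4 markers), melanocyte (7), endothelial (5) and Langerhans and T cell markers (6, with Cd3g at 0) overlapped between the groups. Tested histone genes had a median GC content of 56.0%, against 49.8% for all tested genes. The part of the marker lists in the histone difference was not tested.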

How the data were processed

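RNA-seq was made from 10 ng of total RNA per library with an amplifying cDNA kit and read as 100-base single reads, per the labels' protocols. The authors deposited whole-number read counts per gene, not normalised. Tools listed in the submitters' processing notes, without role or order, are HTSeq 0.6.1, TopHat2 2.0.13, DESeq2 1.6.3 and Cufflinks 2.2.1, with build mm10. The gene models, the use of strand and the counting of reads that fit several genes were not given in those sources.

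Counts were tested with edgeR 4.0.16 in R 4.3.3 (filterByExpr at defaults, TMM, glmQLFit with legacy set to FALSE, glmQLFTest, Benjamini-Hochberg over 14550 genes) on 2 control and 2 I53A libraries. CPM are counts relative to the product of total counts and TMM factor. Interval and floor statements cover counting error only. The procedure was tested on simulated data. Named genes are those called, the 4 of highest mean CPM in each histone type, those of largest positive and negative fold change, and in the other lists up to 4 called genes or else the 2 of highest mean CPM. The histone genes and lists were chosen with earlier results of these data known. Alternatives covered scaling, filters, library size, GC content and length offsets, the replicate block, DESeq2 1.42.0, limma-voom (limma 3.58.1) and each library left out. Gene positions are from GENCODE M21, and promoters and the distances between paired starts are from RefSeq.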

Additional observations from a re-analysis of the deposited data

How the results depend on the processing

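The summed level of each histone type and of all 69 genes kept its direction under every alternative run on it; without 1 library the log2 ratio of the whole sum ranged from -0.686 to -0.407. Gene calls rest on 2 libraries a group and moved more; leaving out 1 library leaves a group with a single library, assumed to vary like the other group. The number of histone genes called lower (1 in the reported fit) ranged from 0 to 4 without 1 library: 0 without either control, 4 without I53A replicate 1 and 2 without I53A replicate 2. It was 2 with GC content and length offsets and 2 with DESeq2. Over all genes, 826 were called higher and 151 lower. Without 1 library these ranged from 251 (control replicate 1) to 1198 (I53A replicate 1) and from 38 (control replicate 1) to 404 (I53A replicate 2); without control replicate 2 they were 527 and 76, and without I53A replicate 1 the lower count was 382. GC content and length offsets gave 870 higher and 322 lower, and DESeq2 230 lower. Other list counts without 1 library ranged from 0 to 1 for histone mRNA processing genes, from 0 to 3 for replication-independent histone genes, from 0 to 1 for chaperones and from 0 to 6 for S phase genes, the highest each time without I53A replicate 2. DESeq2 called 2 replication-independent histone genes and 1 S phase gene. The cause of these shifts was not tested.

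With the replicate number as a block, 3 histone genes and 232 genes in all were called lower, and 1 S phase gene was called; block and offsets together gave 3 histone genes, 1282 genes higher and 610 lower, and 4 S phase genes. The numbers are not shown to pair the samples: same-numbered libraries had deviations correlated at 0.0409, over 2 pairs.

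Of 315 combinations of the 21 named histone genes with 15 alternatives, 292 kept direction and side of the threshold, 10 newly passed it, 2 no longer did (Hist1h1e, without either control) and 11 changed sign, none of them called. Without 1 library each, the log2 fold change ranged across 0 for Hist1h1d (-0.202 to 0.109; above 0 without control replicate 1, 0.108, and without I53A replicate 1), Hist1h2bf (-0.744 to 0.0594, above 0 without control replicate 2), Hist1h3e (-0.225 to 0.0830, above 0 without control replicate 2), Hist1h3i (-0.141 to 0.611, below 0 without I53A replicate 1), Hist1h4c (-0.323 to 0.434; below 0 without control replicate 2, -0.172, and without I53A replicate 1) and Hist2h2ac (-0.815 to 0.395; above 0 without control replicate 2 and, at 0.105, without I53A replicate 2). Hist1h3e was also above 0 with offsets (0.103) and with block and offsets (0.106). An earlier edgeR method, a robust fit and the S phase sum without Mki67 and Top2a were added after seeing the data; the last moved the log2 ratio of the histone sum to the S phase sum from -0.461 to -0.288. Histone genes under 5 CPM had standard errors mostly above 0.5, and a difference there may not be detectable at this depth. The files hold no mitochondrial gene symbols, so the library-size alternative left out Rn45s alone.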
